A study of Mus musculus with 6 samples.

Results

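The 37 genes described here act in mitosis, the step in which a cell that has copied its DNA parts the copies between its daughters. They were chosen by name, all 37 were found among the 23377 gene symbols of the count table, and all 37 were among the 13134 genes with enough counts to test. Expression was measured by RNA-seq in sorted hair follicle stem cells of C57BL/6 mice, in 2 libraries of the genotype Ring1a/b-/- (RingKO) and 2 wild-type (WT) libraries. Ring1a and Ring1b are ubiquitin ligases of the Polycomb group that can stand in for each other, mark histone H2A and help to keep developmental genes silent. Per the labels, each sample was 3000 cells, copied to cDNA by SMART-seq2, a full-length method with PCR amplification of polyadenylated RNA. Age, sex, Cre driver, time after deletion and whether the libraries came from separate animals were not stated. The p-values therefore rest on the spread between these libraries alone, and that spread may be technical. Values are CPM, read counts scaled to a common library size with edgeR's TMM factors, and a log2 fold change is RingKO over WT.

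Entry into mitosis is driven by Cdk1 bound to cyclins A and B, with the kinases Plk1, Aurora A and Aurora B. Chromosomes attach to the spindle through kinetochores built on Cenpa chromatin, and the spindle checkpoint holds back the anaphase-promoting complex (APC/C), a ubiquitin ligase, until every kinetochore is attached. Most of these genes are transcribed late in the cell cycle, so in a bulk library their level can vary with the share of cycling cells. In the growing follicle the fast-dividing cells lie in the hair matrix, while bulge stem cells divide rarely.

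Total counts were 4844381 and 7740945 in the RingKO libraries, against 2785843 and 3056593 in the WT libraries, so the RingKO pair was the deeper one. Ring1, the gene of Ring1a, had 15.5 and 18.4 CPM in RingKO against 31.9 and 29.4 CPM in WT, and Rnf2, the gene of Ring1b, had 151 and 153 CPM against 144 and 87.8 CPM. Neither passed the test (edgeR adjusted p = 0.551 and 0.532), and since the deleted exons are not given, counts over whole genes do not check the genotype. All 15 follicle stem cell markers had counts, with sums of 2059 and 1789 CPM in RingKO against 1765 and 1944 CPM in WT. The 14 tested were mixed, with 3 lower in both RingKO libraries, 4 higher and 7 overlapping. Lgr5 stood at 251 and 240 CPM in RingKO against 140 and 194 CPM in WT, and Krt15 at 303 and 250 CPM against 417 and 362 CPM.

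Most of the mitosis genes had lower levels in RingKO than in WT, by a modest amount. Their summed level was 5732 and 5522 CPM in RingKO, against 7691 and 7852 CPM in WT, or 0.586% and 0.573% of all counts against 0.727% and 0.77%. Both RingKO libraries lay below both WT libraries in these sums. At 26 of the 37 genes both RingKO libraries were below both WT libraries, at 11 the groups overlapped, and at 0 both were above. These 26 include near-ties, with nearest RingKO and WT libraries at 81.8 and 82.4 CPM for Aurka and 65.8 and 67.4 CPM for Kif20a. Of all genes tested, 22.3% had both RingKO libraries below and 24.8% had both above. The log2 fold change was below 0 for 36 genes and above 0 for 1 (Kif4), where 47.7% of all tested genes were below 0. Its median over the members was -0.47, a level 27.7% lower, with quartiles of -0.57 and -0.28, while the median of all tested genes was 0.03. Abundant genes were lower as a class: 32 members belong to it, and 42.5% of its 4358 genes had both RingKO libraries below both WT libraries, with a median of -0.20. With a smooth trend on gene span and abundance removed, a choice made once the data had been seen, the members' median was -0.22 and that of all genes -0.04. In bulk RNA, fewer cells in mitosis and less of each RNA per cell cannot be told apart.

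No single member passed the quasi-likelihood test of edgeR after Benjamini-Hochberg adjustment over all 13134 genes: 0 rose and 0 fell, with a lowest adjusted p of 0.147 (Ccnb2). That test called 0.00761% of all genes as lower and 0.0533% as higher. Before adjustment 16 members were lower and 0 higher at p under 0.05, beside 8.16% and 8.47% of all genes. Limma-voom called 0 members as well (16 before adjustment, beside 1956 of the 13134 genes in either direction). DESeq2 called 14 members lower and 0 higher, where it called 6.14% of all genes as lower and 6.21% as higher. Such calls were not particular to mitosis genes. DESeq2 also called 72 of 86 ribosomal protein genes and 56 of 69 respiratory chain genes as lower. Of the members 32 are abundant, and the share called among abundant genes alone is not given here. EdgeR without a filter on low counts called 6 members lower, beside 1.84% of all genes, and with the replicate numbers as a block 4, beside 1.55%. The authors' deposited table likewise holds 14 members with an adjusted p under 0.05, all of them lower, and marks 0 of the 37, since the marks there also ask for a log2 difference no smaller than 1. The members called by DESeq2 were Birc5, Ccna2, Ccnb1, Ccnb2, Cdca3, Cdca8, Cdk1, Cenpa, Kif2c, Mki67, Nuf2, Nusap1, Top2a and Ube2c.

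**Figure D1:**
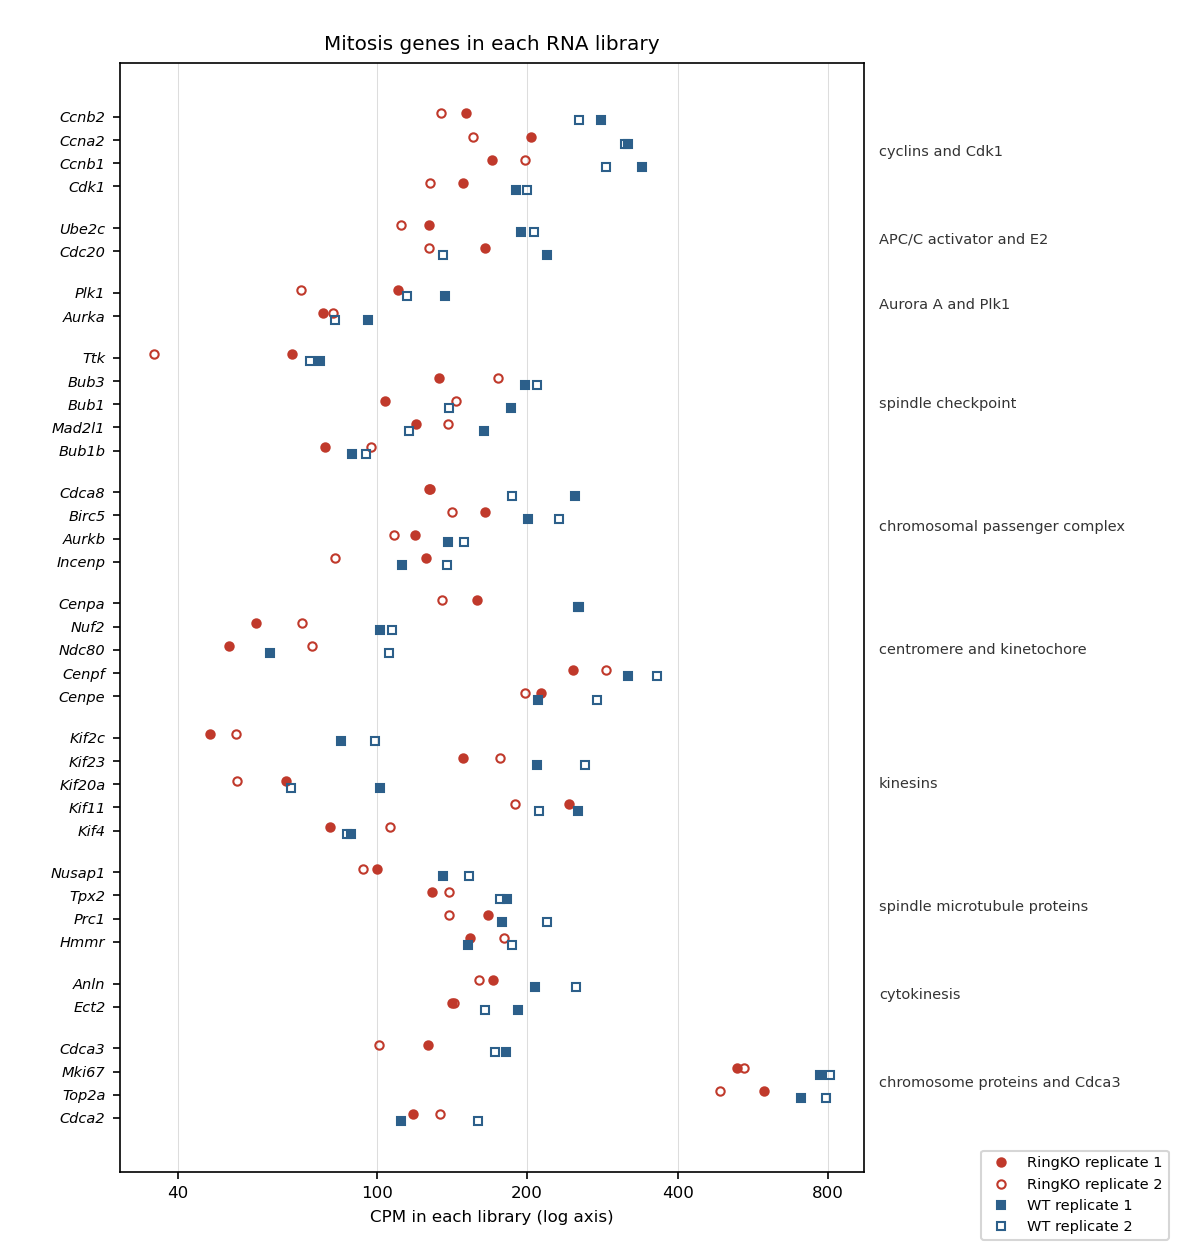
CPM (x axis, log scale) of the 37 mitosis genes (rows, grouped by role) in each library, with RingKO as red circles and WT as blue squares, replicate 1 filled and replicate 2 open. At 26 genes both circles lie left of both squares, as for Ccnb2 (151 and 135 CPM in RingKO, 281 and 254 CPM in WT), and at 11 they overlap, as for Hmmr.

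Marker sums of other cell types were not the same in the genotypes. The 13 hair matrix and inner sheath markers, genes of the dividing matrix and of its progeny, summed to 2251 and 2073 CPM in RingKO against 3814 and 3044 CPM in WT, with 8 of 13 lower in both RingKO libraries, 3 higher and none at 0. Shh, a signal of matrix cells, stood at 9.89 and 2.12 CPM in RingKO against 52.4 and 40.4 CPM in WT. The leukocyte markers summed to 1201 and 557 CPM in RingKO against 377 and 407 CPM in WT, with 7 of the 12 tested higher, 1 lower (Epcam, also an epithelial gene) and Cd207 at 0 in every library. Of these Ctss, a protease of antigen-presenting cells, rose, at 137 and 73.3 CPM in RingKO against 6.46 and 8.34 CPM in WT (edgeR adjusted p = 0.0444). The fibroblast and dermal papilla markers summed to 507 and 404 CPM in RingKO against 769 and 970 CPM in WT, with 1 of 8 tested lower in both RingKO libraries (Dcn, 272 and 159 against 593 and 430 CPM), 3 higher and 4 overlapping. The epidermal differentiation markers summed to 544 and 547 CPM in RingKO against 605 and 631 CPM in WT, with 2 of 6 tested lower, 1 higher, 3 overlapping and a median log2 fold change of 0.07. Lower sums in RingKO were also found for endothelial and mural markers (13.7 and 64.6 against 163 and 182 CPM, mostly Acta2, with Cldn5, Tie1 and Rgs5 at 0 in RingKO) and melanocyte markers (187 and 133 against 194 and 197 CPM; 2 of 5 tested lower, 0 higher, Sox10 at 0 in every library). The part of these cell types in the mitosis result was not tested.

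Cyclins and Cdk1 had the lowest median log2 fold change of the 10 roles, at -0.79, although single members of other roles (Kif2c, Cenpa, Cdca8) were about as low or lower. Relative to genes of the same span and abundance class their median was -0.35, beside -0.39 for the cytokinesis genes and -0.35 for the centromere and kinetochore genes. With the trend removed Kif2c (-0.92), Nuf2 (-0.71) and Ttk (-0.66) were lower than every cyclin. Ccnb2, cyclin B2, stood at 151 and 135 CPM in RingKO against 281 and 254 CPM in WT, for a log2 fold change of -0.91 with an SE of 0.19 (edgeR adjusted p = 0.147). Ccna2, cyclin A2, which acts from S phase into early mitosis, stood at 204 and 156 CPM in RingKO against 318 and 314 CPM in WT (-0.82 ± 0.20; adjusted p = 0.149). Ccnb1, cyclin B1, the main mitotic partner of Cdk1, stood at 170 and 198 CPM in RingKO against 340 and 287 CPM in WT (-0.77 ± 0.19; adjusted p = 0.149). In each of these cyclins the WT libraries lay well above the RingKO pair and no pair overlapped. The kinase itself, Cdk1, was less far down, at 149 and 128 CPM in RingKO against 190 and 200 CPM in WT (-0.50 ± 0.20). These 4 genes were all called lower by DESeq2.

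Promoters of mitosis genes are known to carry the cell cycle genes homology region (CHR), which the DREAM complex binds in resting cells and the MuvB, B-Myb and Foxm1 complex in dividing ones, and CCAAT boxes, which NF-Y binds. RefSeq windows on GRCm38.p6, from 250 bases before to 50 after the start, were held for 31 members in 34 windows. Those of 5 members are printed to show members of both kinds: Ccnb2, Cenpa and, near the middle of the members, Cdk1 had both RingKO libraries below both WT libraries, while Hmmr and Kif4, with the highest ratios, overlapped between genotypes. The windows are chr9:70421505-70421804 (minus strand) for Ccnb2, chr10:69352863-69353162 (minus strand) for Cdk1, chr5:30666636-30666935 (plus strand) for Cenpa, chr11:40733388-40733687 (minus strand) for Hmmr and chrX:100625815-100626114 (plus strand) for Kif4. Capitals mark the CHR letters TTTGAA or TTCGAA and CCAAT, on either strand, so that TTCAAA and ATTGG are the same motifs read from the other strand.
Ccnb2: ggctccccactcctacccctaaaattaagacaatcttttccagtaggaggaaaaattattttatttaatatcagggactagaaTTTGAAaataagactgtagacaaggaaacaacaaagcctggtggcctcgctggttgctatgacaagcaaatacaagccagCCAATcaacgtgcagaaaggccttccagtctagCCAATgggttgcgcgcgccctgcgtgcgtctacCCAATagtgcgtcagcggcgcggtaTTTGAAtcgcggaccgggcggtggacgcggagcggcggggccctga
Cdk1: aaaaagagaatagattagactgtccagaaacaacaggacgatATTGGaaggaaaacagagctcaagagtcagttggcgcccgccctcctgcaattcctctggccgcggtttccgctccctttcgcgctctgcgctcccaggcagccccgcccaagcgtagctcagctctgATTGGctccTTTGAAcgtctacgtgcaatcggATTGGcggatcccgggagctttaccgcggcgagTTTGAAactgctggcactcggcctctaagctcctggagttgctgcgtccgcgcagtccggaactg
Cenpa: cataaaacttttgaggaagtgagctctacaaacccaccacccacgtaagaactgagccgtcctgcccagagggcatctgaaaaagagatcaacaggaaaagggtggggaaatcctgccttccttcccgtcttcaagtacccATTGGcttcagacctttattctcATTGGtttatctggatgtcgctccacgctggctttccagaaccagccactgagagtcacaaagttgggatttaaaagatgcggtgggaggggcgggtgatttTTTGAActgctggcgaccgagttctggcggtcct
Hmmr: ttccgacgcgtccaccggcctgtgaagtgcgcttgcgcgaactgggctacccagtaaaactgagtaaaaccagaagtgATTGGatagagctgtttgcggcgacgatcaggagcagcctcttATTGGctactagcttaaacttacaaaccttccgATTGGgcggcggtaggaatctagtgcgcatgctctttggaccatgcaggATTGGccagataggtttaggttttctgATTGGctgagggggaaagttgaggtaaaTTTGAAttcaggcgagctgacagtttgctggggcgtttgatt
Kif4: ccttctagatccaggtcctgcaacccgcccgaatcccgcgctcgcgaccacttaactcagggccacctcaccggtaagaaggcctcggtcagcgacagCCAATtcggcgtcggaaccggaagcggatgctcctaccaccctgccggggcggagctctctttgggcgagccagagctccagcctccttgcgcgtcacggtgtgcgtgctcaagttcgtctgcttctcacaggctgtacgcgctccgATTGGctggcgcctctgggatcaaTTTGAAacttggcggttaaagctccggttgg
A CHR was found in 28 of the 34 member windows (82.4%) and in 19.2% of all 32851 RefSeq windows, and CCAAT in 27 of 34 (79.4%) and in 37.4% of all. TTCGAA reads the same on both strands, a CHR and a CCAAT may share a base, and base composition was not matched. Of the 31 members 22 held both motifs, 6 held no CHR (Birc5, Ccnb1, Cenpe, Mad2l1, Nuf2 and Nusap1) and 4 held neither. The median log2 fold change was -0.47 over the 25 members with a CHR and -0.54 over the 6 without. All 5 printed windows hold both motifs, also those of Hmmr and Kif4. Since 22 of the 31 members hold both, these 5 chosen windows cannot decide whether the letters go with the change. A match is a run of letters and does not show binding. Aurkb, Ccna2, Cdca2, Incenp, Kif20a and Tpx2 had no window.

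Exit from mitosis needs the APC/C, and 2 members act with it; the difference between them was not tested. Ube2c, the ubiquitin-conjugating enzyme that starts chains for the APC/C, stood at 127 and 112 CPM in RingKO against 194 and 207 CPM in WT, a log2 fold change of -0.75 ± 0.20 (edgeR adjusted p = 0.149). Cdc20, the activator that brings substrates to the APC/C, stood at 165 and 127 CPM in RingKO against 219 and 136 CPM in WT (-0.28 ± 0.27; adjusted p = 0.696). The Cdc20 libraries overlapped, and WT replicate 1 alone was high: without it the log2 fold change was 0.11. For the kinases, Plk1, which acts from spindle assembly to cytokinesis, stood at 111 and 70.7 CPM in RingKO against 137 and 115 CPM in WT (-0.48 ± 0.28), and Aurka, the spindle pole kinase, at 78.1 and 81.8 CPM against 96.1 and 82.4 CPM (-0.16 ± 0.26). Plk1 spread widely within RingKO, with a log2 fold change of -0.20 without RingKO replicate 2 and -0.83 without RingKO replicate 1.

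Spindle checkpoint genes were the role with the most overlap, at 3 of 5 members, and DESeq2 called 0 of them. Overlap was common in general, as only 22.3% of all tested genes were below without overlap and 24.8% above. DESeq2 called 6.14% of all genes as lower and 6.21% as higher, so 0 calls among 5 genes do not set this role apart. Bub3, which carries Bub1 and BubR1 to kinetochores, stood at 133 and 175 CPM in RingKO against 198 and 209 CPM in WT, a log2 fold change of -0.40 ± 0.21 (edgeR adjusted p = 0.39). Ttk, the kinase Mps1 that starts checkpoint signalling, stood at 67.6 and 35.9 CPM in RingKO against 77.1 and 73.7 CPM in WT (-0.55 ± 0.38). The low Ttk value came from RingKO replicate 2, and without that library the log2 fold change was -0.17. Bub1 overlapped at 104 and 144 CPM in RingKO against 185 and 139 CPM in WT (-0.39 ± 0.25). Bub1b, which encodes BubR1, stood at 78.9 and 97.5 CPM in RingKO against 89.2 and 95.1 CPM in WT (-0.06 ± 0.26). Mad2l1, the Mad2 protein that binds Cdc20, stood at 120 and 139 CPM in RingKO against 164 and 116 CPM in WT (-0.11 ± 0.24). The direction of Bub1b and of Mad2l1 turned when single libraries were left out, with ranges of -0.24 to 0.08 and -0.35 to 0.16.

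The chromosomal passenger complex is Aurora B with its scaffold Incenp and the targeting subunits survivin and borealin. Cdca8, which encodes borealin, had the lowest ratio of the 4, at 127 and 128 CPM in RingKO against 250 and 187 CPM in WT, a log2 fold change of -0.78 ± 0.22 (edgeR adjusted p = 0.152). Birc5, survivin, stood at 165 and 142 CPM in RingKO against 201 and 231 CPM in WT (-0.50 ± 0.20; adjusted p = 0.263). Aurkb stood at 120 and 108 CPM in RingKO against 139 and 150 CPM in WT (-0.34 ± 0.21). Incenp overlapped, at 126 and 82.5 CPM in RingKO against 112 and 138 CPM in WT (-0.27 ± 0.27), and its log2 fold change without RingKO replicate 2 was -0.01. Subunits of this complex therefore had point estimates from -0.78 to -0.27, and the differences between them were not tested.

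At the centromere, Cenpa, the histone H3 variant that marks the site of the kinetochore, stood at 159 and 135 CPM in RingKO against 253 and 254 CPM in WT, a log2 fold change of -0.79 ± 0.19 (edgeR adjusted p = 0.149). Nuf2, a subunit of the Ndc80 complex that grips microtubules, stood at 57.3 and 71.0 CPM in RingKO against 101 and 107 CPM in WT (-0.70 ± 0.27). Its partner Ndc80 overlapped, at 50.7 and 74.2 CPM in RingKO against 61.1 and 106 CPM in WT (-0.42 ± 0.36), and both of its genotypes spread widely. Cenpf, a large kinetochore and nuclear matrix protein, stood at 247 and 287 CPM in RingKO against 318 and 364 CPM in WT (-0.35 ± 0.18; adjusted p = 0.385). Cenpe, the kinetochore kinesin, overlapped narrowly, at 213 and 198 CPM in RingKO against 211 and 276 CPM in WT (-0.24 ± 0.20; adjusted p = 0.635). Without WT replicate 2, Cenpe was at -0.05 and Ndc80 at 0.02.

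Kinesins, the motors of the spindle, covered nearly the whole range of the members. Kif2c, which takes microtubules apart to correct wrong attachments, stood at 46.4 and 52.4 CPM in RingKO against 85.1 and 99.1 CPM in WT, a log2 fold change of -0.90 ± 0.29 (edgeR adjusted p = 0.186). Kif23, a motor of the central spindle in cytokinesis, stood at 149 and 177 CPM in RingKO against 209 and 262 CPM in WT (-0.53 ± 0.21). Kif20a, which also acts in cytokinesis, stood at 65.8 and 52.5 CPM in RingKO against 102 and 67.4 CPM in WT (-0.52 ± 0.33), and without WT replicate 1 it was at -0.19. Kif11, the motor that pushes the poles apart, overlapped at 242 and 189 CPM in RingKO against 253 and 211 CPM in WT (-0.11 ± 0.21; adjusted p = 0.878). Kif4, a chromosome motor, was the member with a positive value, at 80.8 and 106 CPM in RingKO against 88.9 and 87.4 CPM in WT (0.09 ± 0.26; adjusted p = 0.934). Kif4 rested on RingKO replicate 2, without which it was at -0.14.

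Among spindle and cytokinesis proteins, Nusap1, a microtubule bundler, stood at 100 and 94.0 CPM in RingKO against 136 and 153 CPM in WT, a log2 fold change of -0.57 ± 0.22. Tpx2, the activator of Aurora A on the spindle, stood at 129 and 139 CPM in RingKO against 182 and 177 CPM in WT (-0.42 ± 0.20). Prc1, which crosslinks the central spindle, stood at 167 and 139 CPM in RingKO against 178 and 219 CPM in WT (-0.38 ± 0.21; edgeR adjusted p = 0.424). Hmmr, a spindle-binding hyaluronan receptor, stood at 154 and 180 CPM in RingKO against 152 and 187 CPM in WT (-0.02 ± 0.21), so its replicates differed far more than its genotypes. Anln, anillin of the cleavage furrow, stood at 171 and 160 CPM in RingKO against 207 and 251 CPM in WT (-0.47 ± 0.20; adjusted p = 0.279). Ect2, the exchange factor that switches on RhoA there, stood at 141 and 143 CPM in RingKO against 191 and 165 CPM in WT (-0.33 ± 0.20).

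The proliferation marker Mki67, whose protein Ki-67 coats mitotic chromosomes, stood at 525 and 543 CPM in RingKO against 772 and 807 CPM in WT, a log2 fold change of -0.56 ± 0.16 (edgeR adjusted p = 0.159). Its replicates lay closer together than those of most members, and the gap between genotypes was many times wider. Top2a, the topoisomerase that untangles sister chromatids, stood at 594 and 486 CPM in RingKO against 707 and 793 CPM in WT (-0.47 ± 0.18; adjusted p = 0.242). Cdca3, a protein of mitotic entry, stood at 127 and 101 CPM in RingKO against 181 and 172 CPM in WT (-0.64 ± 0.22). Cdca2, a chromatin partner of protein phosphatase PP1, overlapped at 118 and 134 CPM in RingKO against 112 and 159 CPM in WT (-0.11 ± 0.24). Removal of the trend on gene span and abundance brought Mki67 to 0.04 and Top2a to 0.09.

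**Figure D2:**
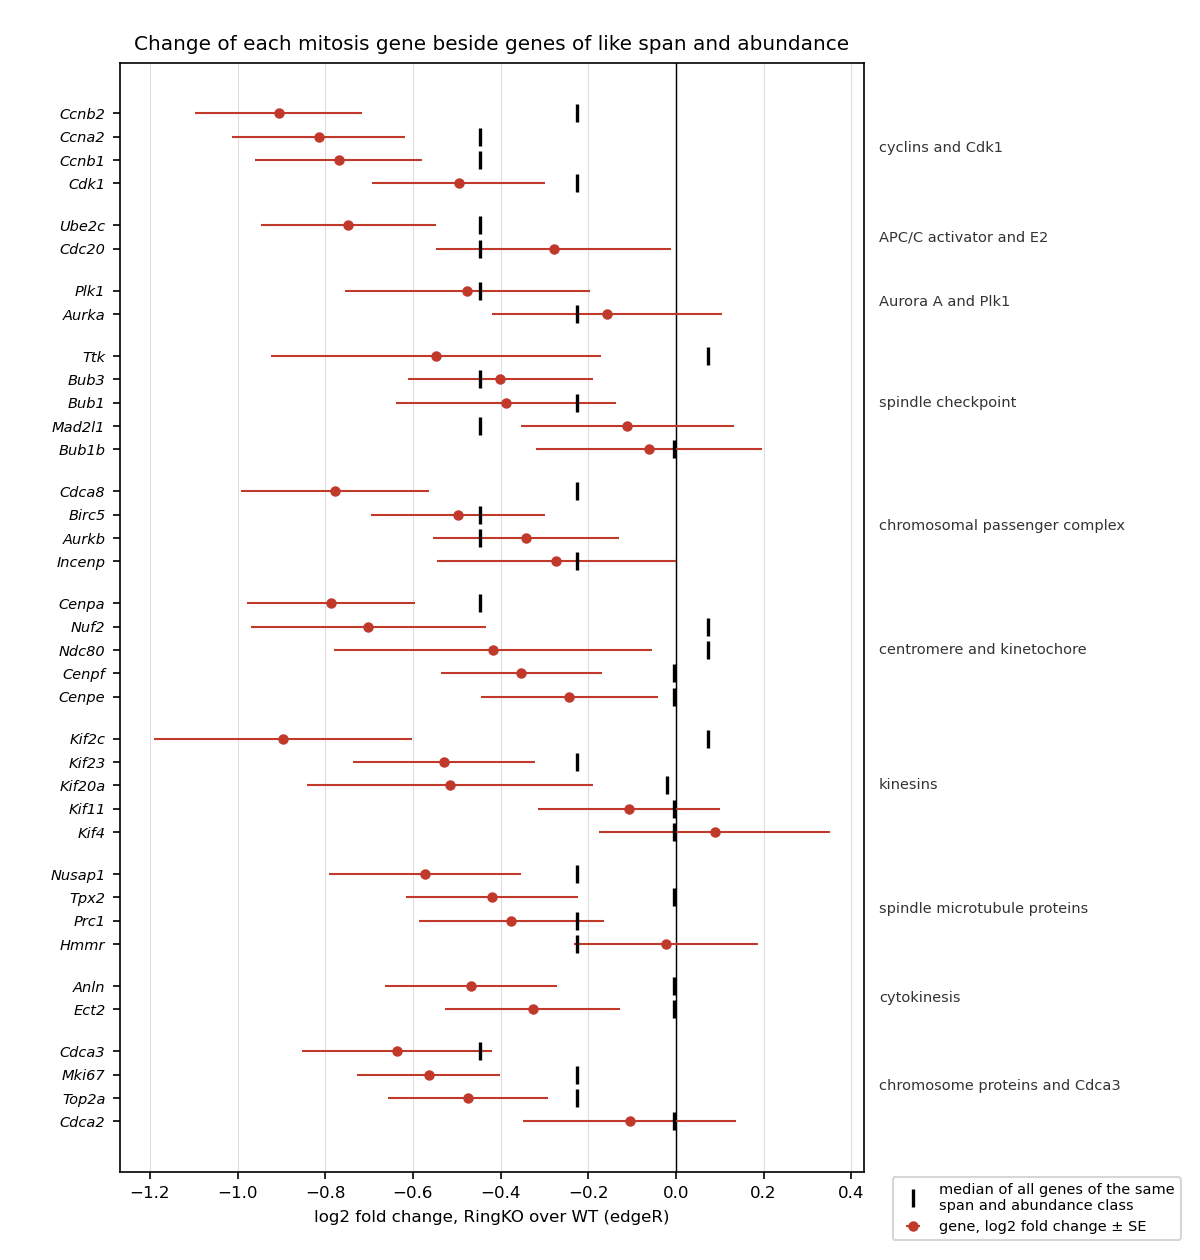
Log2 fold change of RingKO over WT (x axis) with its standard error for each mitosis gene (rows, grouped by role), and a black tick at the median of all genes of the same gene span and abundance class. The points run from -0.91 (Ccnb2) to 0.09 (Kif4), and 30 of 37 lie left of their tick.

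The members were set beside other genes of like size and abundance, since short abundant transcripts were lower in RingKO as a whole. The 13073 tested genes with a RefSeq gene span (99.5%) were divided into 3 classes of equal size by span, at 13204 and 39032 bp, and into 3 by mean log2 CPM, with high abundance starting at 83.3 CPM. Span is the length of the gene on the genome with introns and not the length of its transcript, which was not used here. Among short genes of high abundance the median log2 fold change was -0.45 over 1293 genes, 87.9% were below 0 and 67% had both RingKO libraries below both WT libraries. In the class of middle span and high abundance the median was -0.22 over 1487 genes, and for long span and high abundance it was -0.01 over 1578 genes. Low-abundance genes went the other way, with medians of 0.40, 0.48 and 0.76 from short to long span.

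Of the 37 members 32 were in the high-abundance class, where 68.9% of the 4358 genes had a value below 0. The 11 short members there (among them Ccna2, Ccnb1, Cenpa and Ube2c) had a median of -0.50, beside the -0.45 of their class, and 9 of them had no overlap. The 12 of middle span had a median of -0.49 beside -0.22, and the 9 of long span a median of -0.24 beside -0.01. Of all members 30 were below the median of their class and 21 below its first quartile, with a median difference from the class of -0.27. Ccnb2 was 0.68 below its class median on the log2 scale, while Aurka, Aurkb, Bub3, Cdc20, Hmmr, Kif4 and Mad2l1 were above theirs. Across the 37 members the log2 fold change and log2 gene span had a Pearson correlation of 0.41, and across the 13073 genes 0.10. With abundance on the log2 scale the correlation was -0.14 across the members and -0.39 across the 13073 genes. All points share the same 4 libraries and their depth. With the trend on span and abundance removed from each library, 31 of 37 members were below 0 and 0 passed in edgeR. Before adjustment 5 members (Ccnb2, Cdca8, Cenpa, Kif2c and Nuf2) had p under 0.05 in that setting, all lower, beside 3.86% of all genes lower and 10.2% in either direction.

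**Figure D3:**
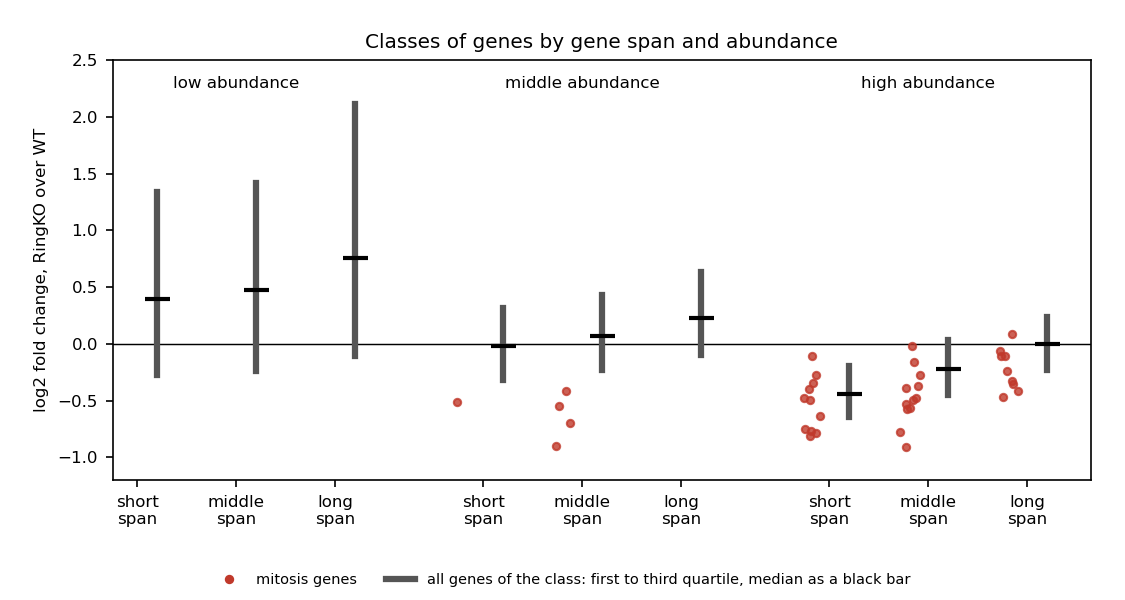
Log2 fold change of RingKO over WT (y axis) for the mitosis genes (red points) in 9 classes by abundance and gene span, with a grey bar from the first to the third quartile of all genes of the class and a black bar at their median. Among abundant genes the class medians are -0.45, -0.22 and -0.01 from short to long span, and those of the mitosis genes are -0.50, -0.49 and -0.24.

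Lists of short, abundant housekeeping transcripts were further down than the mitosis genes. Of 85 tested ribosomal protein genes 83 had both RingKO libraries below both WT libraries and 0 had both above, with a median log2 fold change of -0.81. The share below without overlap was 22.3% of all genes tested and 67% of the short genes of high abundance. Rpl4 stood at 360.0 and 263 CPM in RingKO against 548 and 502 CPM in WT (-0.75 ± 0.20; edgeR adjusted p = 0.149), and Rpl3 at 348 and 253 CPM against 583 and 474 CPM (-0.82 ± 0.21; adjusted p = 0.149). Ribosomal protein genes have many near-identical pseudogene copies, so their counts are uncertain. Of 69 nuclear genes of the respiratory chain, which makes ATP in mitochondria, 67 lay below without overlap, with a median of -0.73. Atp5b stood at 404 and 312 CPM in RingKO against 689 and 554 CPM in WT (-0.80 ± 0.20), and Atp5a1 at 351 and 304 CPM against 636 and 475 CPM (-0.76 ± 0.20). EdgeR called 0 genes of either list. DESeq2 called 72 ribosomal protein and 56 respiratory chain genes as lower, where it called 6.14% of all genes as lower. With the trend removed their medians were -0.35 and -0.42, against -0.22 for the mitosis genes.

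Other genes of the mitotic machinery had medians nearer to 0 than the members before the trend was removed, and edgeR called 0 of them in either direction. With the trend removed the order was not kept: the median was -0.31 for the other kinetochore and centromere genes, against -0.22 for the members. It was -0.11 for the APC/C list, 0.00366 for condensin, cohesin and separase and -0.11 for further spindle genes. For Cdk1 regulators it was -0.12, for transcription factors -0.04 and for S phase genes -0.12. DESeq2 called 5 other kinetochore and centromere genes, 2 APC/C genes, 2 further spindle genes and 2 Cdk1 regulators as lower. It called 0 genes of the condensin and transcription factor lists as lower, and 0 genes of any of these lists as higher. Of all genes it called 6.14% as lower and 6.21% as higher. Of 37 other kinetochore and centromere genes 14 had both RingKO libraries below both WT libraries, 2 had both above and 21 overlapped, with a median log2 fold change of -0.23. Casc5, which encodes the kinetochore scaffold Knl1, stood at 211 and 192 CPM in RingKO against 193 and 243 CPM in WT, and the groups overlapped (-0.11; edgeR adjusted p = 0.873). Of 17 APC/C genes 8 were below without overlap and 2 above, with a median of -0.15. Of all genes tested 22.3% were below without overlap and 24.8% above, and of the abundant genes 42.5% were below. Anapc5 stood at 269 and 250 CPM in RingKO against 435 and 293 CPM in WT, and Anapc1 at 271 and 268 CPM against 197 and 250 CPM, so these subunits of 1 complex differed in sign. Of 20 condensin, cohesin and separase genes, which fold and hold the chromosomes, 7 were below and 1 above, with a median of -0.13. Nipbl, the cohesin loader, stood at 340 and 355 CPM in RingKO against 283 and 385 CPM in WT, and the condensin ATPase Smc2 at 267 and 281 CPM against 329 and 339 CPM.

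Of 38 further spindle, centrosome and cytokinesis genes 15 were below and 3 above, with a median log2 fold change of -0.23. Beside the counts of this paragraph stand 22.3% of all tested genes below and 24.8% above, and 42.5% of abundant genes below. Numa1, of the spindle poles, stood at 231 and 253 CPM in RingKO against 301 and 269 CPM in WT, and Ckap5, a microtubule polymerase, at 221 and 183 CPM against 265 and 255 CPM. Of 11 tested Cdk1 regulators 4 were below and 0 above, with a median of -0.35. Ensa and Arpp19, small inhibitors of the phosphatase PP2A in mitosis, stood at 175 and 185 CPM in RingKO against 249 and 216 CPM in WT, and at 185 and 140 CPM against 228 and 254 CPM. Transcription factors and cofactors of the mitotic program mostly overlapped between genotypes. Of 24 tested, 2 were below, 3 above and 19 overlapped, with a median of 0.04. Rbbp4, a histone-binding MuvB subunit, stood at 168 and 190 CPM in RingKO against 283 and 182 CPM in WT, and Tfdp2, a partner of E2F factors, at 137 and 148 CPM against 174 and 183 CPM. Foxm1, an activator of many mitosis genes, was added after its values were seen: it overlapped at 122 and 114 CPM in RingKO against 109 and 134 CPM in WT (-0.04 ± 0.23).

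Of 36 S phase genes 17 (47.2%) were below and 1 above, with a median log2 fold change of -0.37. This share below is near the 42.5% of abundant genes, while 22.3% of all tested genes were below and 24.8% above. DESeq2 called 9 of them lower and 0 higher, beside 6.14% and 6.21% of all genes. Pola1, a DNA polymerase alpha subunit, stood at 264 and 223 CPM in RingKO against 357 and 323 CPM in WT, and Rrm2, of ribonucleotide reductase, at 210 and 232 CPM against 391 and 312 CPM. The 6 proliferation markers outside the members, of which 5 are also in the S phase list, had a median of -0.63 (-0.17 with the trend removed), with 5 below, 0 above and 1 (Hells) overlapping.

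**Figure D4:**
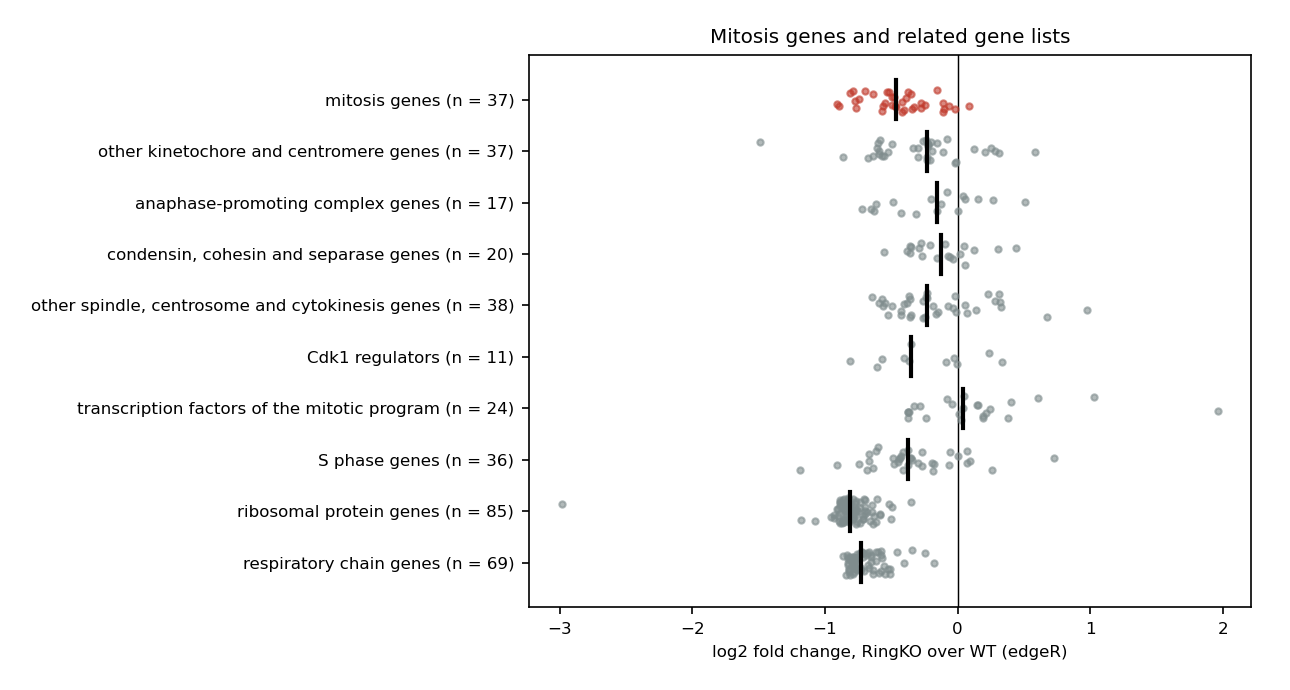
Log2 fold change of RingKO over WT (x axis) of each tested gene (points) in the mitosis list (red) and in 9 related or comparison lists (grey), with a black bar at each median. The median is -0.47 for the mitosis genes, between -0.37 and 0.04 for the related lists, and -0.81 and -0.73 for ribosomal protein and respiratory chain genes.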

How the data were processed

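RNA-seq was analysed for 2 RingKO and 2 WT libraries of sorted hair follicle stem cells. The authors deposited whole-number read counts for each gene symbol, without normalization. Per the submitters' processing notes, the tools included TopHat2 2.1.1, HTSeq 0.7.2 and DESeq2 with build mm9, while the annotation and the use of strand were not stated. A second table by the authors holds, per the file headers, the normalized mean signal, log2 fold changes, the Wald statistic (a score) and p-values with and without adjustment. Only its adjusted p and marks were counted. Ring1b peak lists were not used, since no mm9 annotation was used here to place peaks at genes.

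Counts were tested with edgeR 4.0.16 in R 4.3.3 (filterByExpr, TMM, robust quasi-likelihood fit, genotype as the only term), with p adjusted over all genes tested and a threshold of 0.05. The SE of a log2 fold change is its size divided by the square root of F. Alternatives used DESeq2 1.42.0, limma 3.58.1 and, for smooth trends, mgcv 1.9.3. The test was checked on simulated data with changes larger than that of any member, so the check does not cover changes of the members' size. Tables were made in Python 3.11.15. Total counts ran from 2785843 to 7740945 per library. Gene spans and promoters came from RefSeq tables on GRCm38.p6, matched by symbol, with 723 tested genes matched by a synonym. The members and lists were chosen with earlier results of these data known. The rule for genes described in full took the 8 members of highest mean CPM and the highest of each role; the other members were added after their values were seen. From each other list the rule took the 2 genes of highest mean CPM, as none passed the test there; 1 gene so chosen is not reported here. Of the cell type markers it took Ctss, which passed, and the other markers were named after their values were seen.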

Additional observations from a re-analysis of the deposited data

How the results depend on the processing

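The direction of the mitosis genes' median did not turn under any alternative run, while the number of genes called moved widely. EdgeR called 8 of all genes and 0 members. With no filter on low counts it called 802 genes and 6 members, and DESeq2 called 1792 and 14. With the replicate numbers as a block it called 416 genes and 4 members (Ccna2, Ccnb1, Ccnb2 and Mki67). Same-numbered libraries deviated from their group means with a correlation of -0.14 across genes. With 2 libraries per genotype this value cannot decide whether the numbers pair the libraries. Crossed pairing, chosen after the data were seen, called 8 genes and 0 members. Keeping genes with 1 CPM or more in 2 libraries gave 1 call, and limma-voom called 0 genes (1956 before adjustment). Without single libraries edgeR called 0 to 60 genes and 0 members. The highest count was without WT replicate 2, with 32 without WT replicate 1, 1 without RingKO replicate 1 and 0 without RingKO replicate 2 (1098 before adjustment).

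The members' median log2 fold change of -0.47 ranged from -0.52 to -0.41 without single libraries and was -0.38 with upper-quartile scaling. With the trend on gene span removed it was -0.65 (all genes tested then had a median of -0.23), on abundance -0.22 and on both -0.22, settings chosen after the data were seen, each with 1 gene called. In upper-quartile scaling Bub1b (0.0223) and Hmmr (0.0615) changed sign. Without single libraries the ranges that crossed 0 were -0.24 to 0.08 for Bub1b, -0.15 to 0.12 for Hmmr, -0.30 to 0.0451 for Kif11, -0.14 to 0.27 for Kif4, -0.61 to 0.11 for Cdc20, -0.35 to 0.16 for Mad2l1, -0.33 to 0.15 for Cdca2 and -0.75 to 0.0169 for Ndc80. With both trends removed Cdc20 (0.12), Hmmr (0.19), Kif11 (0.13), Kif4 (-0.10), Mad2l1 (0.21), Mki67 (0.0397) and Top2a (0.0862) changed sign. With the span trend removed Kif4 did (-0.35), and with the abundance trend removed Cdca2 (0.0387), Cenpe (0.0343), Hmmr (0.19), Kif11 (0.18), Mad2l1 (0.052) and Top2a (0.0134). The cause of these changes was not tested. A trend on transcript length was not run, since no transcript lengths were used here. The lowest count of a member in a library was 161 reads (Ndc80, WT replicate 1).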

Other observations

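Replicates of 1 genotype differed at some members by as much as the genotypes did. The log2 ratio of replicate 2 over replicate 1 in RingKO was -0.92 for Ttk, -0.65 for Plk1 and -0.61 for Incenp, and it was 0.55 for Ndc80 and 0.47 for Bub1. The same ratio in WT was -0.69 for Cdc20 and 0.79 for Ndc80. Mki67 had ratios of 0.05 in RingKO and 0.06 in WT.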
